A study of Mus musculus with 8 samples.

Results

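The interferon response and the machinery that prepares peptides for MHC class I were followed as a module of 44 genes in mouse mammary epithelial cells. For each gene the probe set carrying its symbol alone was taken, and where a gene had several, the one with the highest mean over the 8 arrays. This gave a value for 41 of the 44 genes, among 18194 genes in all. Psme2 and Isg15 had no value because their probe set is annotated to more than 1 gene, and Ifi44 had none under that symbol. Of the 41, 38 passed the filter on low values and were tested together with 14598 genes in all. Ifi47, Oas2 and Mx1 were too dim for it. All 38 also had a mean above the filter level of 3.51 in each sorted population taken alone, so none was tested only through the population in which it was high.

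The arrays compare wildtype mice with mice carrying a germline deletion of the transcription factor C/EBPb (C/EBPb-/-), and the labels describe paired sets of glands with 10 mice per group. The sources used here do not give the strain, age, sort purity or the deleted stretch of the gene. From each genotype, lineage-negative cells were sorted by flow cytometry into a CD24+CD29hi and a CD24hiCD29lo population, called CD29hi and CD29lo below, both described as stem or progenitor subpopulations. The 4 groups were wildtype CD29hi, knockout CD29hi, wildtype CD29lo and knockout CD29lo, each with 2 arrays labelled as biological replicates. Cebpb read 11.95 and 12.25 in wildtype CD29hi, 8.60 and 9.38 in knockout CD29hi, 11.83 and 12.18 in wildtype CD29lo, and 9.23 and 8.89 in knockout CD29lo. Its level was 8.15-fold lower in the knockouts averaged over both populations (limma adjusted p = 0.00277), in the direction of the labels. All knockout arrays still read above the array background of 3.84 to 4.41, and the position of the probe set relative to the deleted stretch is not known here. The basal markers (Krt14, Krt5, Acta2, Trp63, Myh11) were above background on all arrays, and the log2 of their summed level was 14.4 to 14.8 in CD29hi against 9.36 to 9.90 in CD29lo. The luminal markers (Krt8, Krt18, Krt19, Elf5, Esr1, Kit) summed to 13.3 to 13.4 in CD29hi and 14.4 to 14.5 in CD29lo.

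Interferons are secreted warning signals. Type I interferons signal through a complex that holds STAT2 and IRF9 to the interferon-stimulated response element (ISRE) of antiviral genes such as Ifit1 and Mx1, while type II interferon, interferon gamma, signals to the gamma-activated site (GAS) of genes such as Irf1, whose product in turn drives guanylate-binding proteins and the immunoproteasome. The immunoproteasome cuts proteins into peptides, the TAP transporter and tapasin load them on to MHC class I, and B2m is the invariant chain that every class I molecule needs. Many genes answer to both types of interferon, so the arms named here are tendencies and not exclusive labels.

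The promoters of 6 genes on which the comparisons turn are shown first, as the 250 bases before the RefSeq transcription start in GRCm38.p6, read 5′ to 3′ with motif matches in capitals. The ISRE was searched as GAAANNGAAA and the GAS as TTCNNNGAA, each on both strands. Irf1 (chr11:53769764-53770013, plus strand) and Psmb8 (chr17:34197945-34198194, plus strand) stand for the type II arm and hold a GAS match. Gbp2 (chr3:142620413-142620662, plus strand) belongs to the same arm and holds an ISRE match on the minus strand. Igtp (chr11:58199306-58199555, plus strand) holds both motifs next to each other without overlap. Ifit1 (chr19:34640639-34640888, plus strand) stands for the type I arm with 2 ISRE matches on the minus strand. B2m (chr2:122147437-122147686, plus strand) holds an ISRE match and is shown because its level hardly differed between the groups.
Irf1: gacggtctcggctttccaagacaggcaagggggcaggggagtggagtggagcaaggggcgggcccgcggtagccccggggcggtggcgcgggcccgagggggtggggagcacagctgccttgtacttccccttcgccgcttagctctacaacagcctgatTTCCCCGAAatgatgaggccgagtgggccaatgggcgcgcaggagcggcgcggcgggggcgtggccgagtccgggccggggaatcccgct
Psmb8: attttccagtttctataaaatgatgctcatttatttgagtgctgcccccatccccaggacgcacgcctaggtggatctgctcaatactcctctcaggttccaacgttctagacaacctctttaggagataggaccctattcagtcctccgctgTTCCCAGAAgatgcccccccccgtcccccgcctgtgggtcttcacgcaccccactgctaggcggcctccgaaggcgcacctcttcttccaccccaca
Gbp2: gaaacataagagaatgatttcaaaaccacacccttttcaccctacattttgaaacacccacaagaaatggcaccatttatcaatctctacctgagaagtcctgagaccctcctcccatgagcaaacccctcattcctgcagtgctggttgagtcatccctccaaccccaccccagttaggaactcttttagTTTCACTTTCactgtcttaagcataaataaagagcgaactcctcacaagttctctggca
Igtp: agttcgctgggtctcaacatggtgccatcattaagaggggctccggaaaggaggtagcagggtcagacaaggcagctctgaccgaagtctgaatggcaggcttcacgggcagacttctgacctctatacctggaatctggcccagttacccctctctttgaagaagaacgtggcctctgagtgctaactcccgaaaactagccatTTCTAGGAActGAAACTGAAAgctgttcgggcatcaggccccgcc
Ifit1: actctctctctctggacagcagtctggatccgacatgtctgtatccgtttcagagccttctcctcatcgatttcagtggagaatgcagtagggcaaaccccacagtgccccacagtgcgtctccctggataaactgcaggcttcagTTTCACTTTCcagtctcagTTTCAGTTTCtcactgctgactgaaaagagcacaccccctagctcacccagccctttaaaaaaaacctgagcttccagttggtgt
B2m: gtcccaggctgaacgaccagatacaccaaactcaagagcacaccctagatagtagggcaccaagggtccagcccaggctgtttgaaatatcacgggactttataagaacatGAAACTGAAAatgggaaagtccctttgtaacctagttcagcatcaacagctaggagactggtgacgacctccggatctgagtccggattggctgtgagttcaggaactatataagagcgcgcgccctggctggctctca

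Of the 44 genes, 33 had a promoter in the RefSeq table. An ISRE match lay in 12 of these 33 (36.4%), against 3.46% of 27025 genes with a promoter of the same length. They were Stat2, Igtp, Irgm1, Gbp2, Gbp3, B2m, Ifit1, Ifit3, Rsad2, Bst2, Isg15 and Cxcl10. A GAS match lay in 7 of 33 (21.2%), against 8.13% of all genes, namely Irf1, Igtp, Psmb8, Ifit2, Bst2, Samhd1 and Eif2ak2. In Bst2 the GAS match overlaps an ISRE match. A C/EBP motif, TTGCNNAA, lay in 3 of 33 (9.09%), namely Ifi47, Gbp3 and Samhd1, against 10.8% of all genes. A match describes letters in this window and is no evidence of binding.

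The largest pattern in the module was the difference between the sorted populations. Averaged over both genotypes, 27 of the 38 genes tested (71.1%) were higher in CD29lo than in CD29hi at a limma p adjusted over all 14598 genes under 0.05, against 10.8% of all genes, and 0 were higher in CD29hi. The median log2 difference of the 38, CD29hi minus CD29lo, was -1.42, against 0.01 over all genes tested, and 37 of the 38 lay below 0. In 26 of them (68.4%, against 12.1% of all genes) every CD29lo array was above every CD29hi array. Among the type II genes Iigp1 was 13.9-fold and Gbp2 8.92-fold higher in CD29lo, and the type I gene Ifit1 was 5.06-fold higher. These are bulk samples, so more cells that express a gene and more RNA per cell cannot be told apart. The samples are labelled as biological replicates, but the source of each is not described further, so the p-values measure the spread between these arrays.

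**Figure D1:**
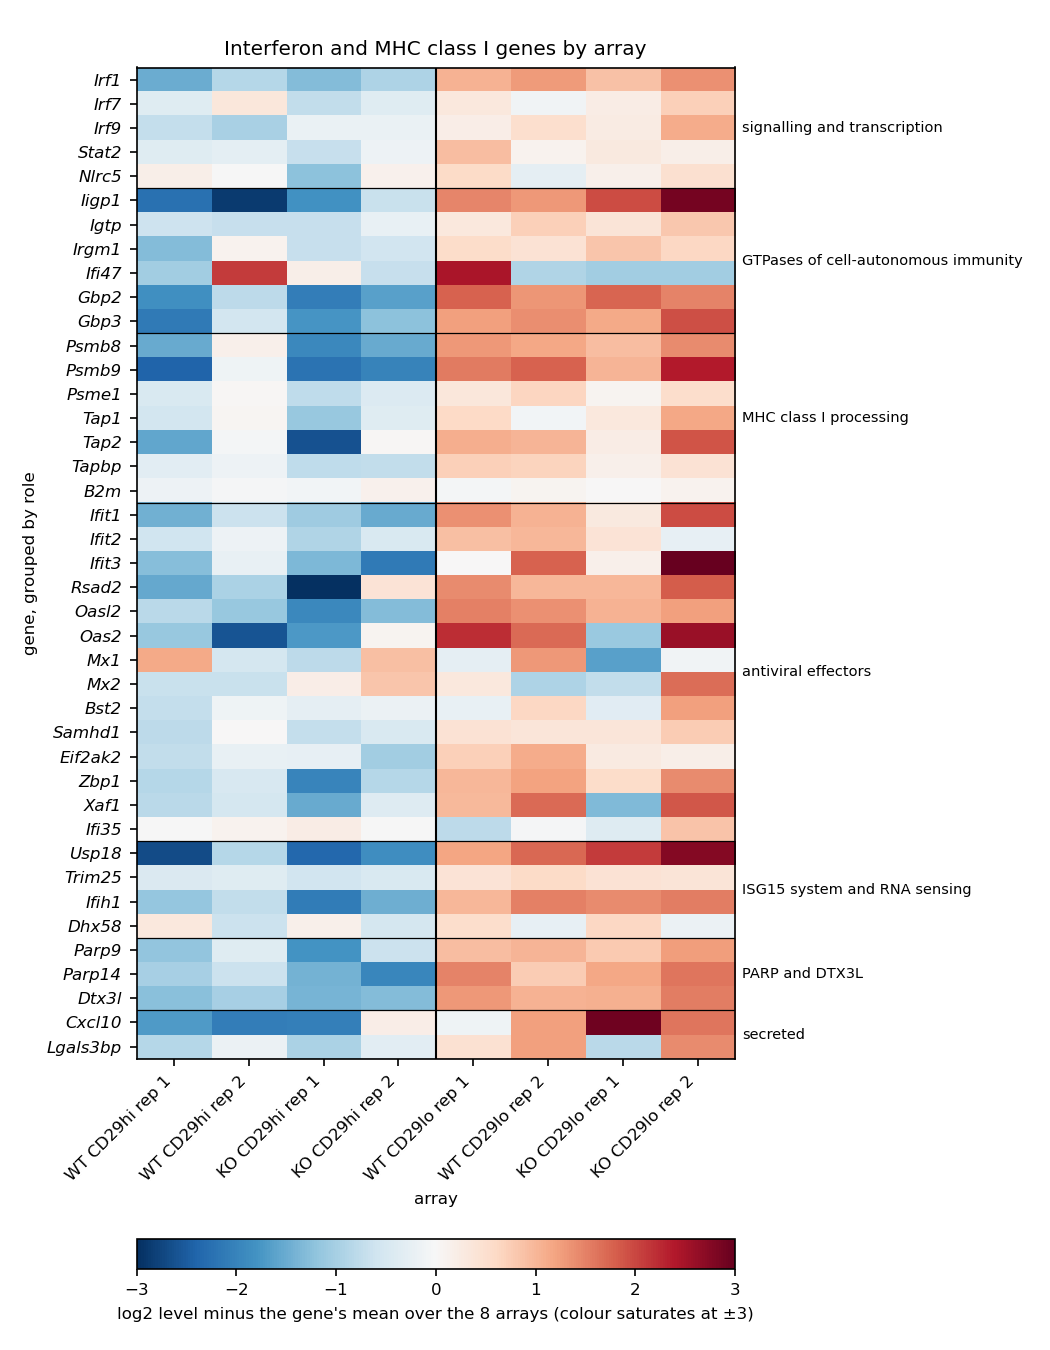
Each row is 1 of the 41 genes with a value, grouped by role, and each column 1 array. Colour gives the log2 level minus the gene's mean over the 8 arrays, red above and blue below, and most rows are blue in the 4 CD29hi arrays to the left of the line and red in the 4 CD29lo arrays to its right. Ifi47, Oas2 and Mx1 were not tested, and B2m is nearly colourless.

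The same comparison held within each genotype. In wildtype cells 13 of 38 genes (34.2%, against 4.23% of all genes) were higher in CD29lo, with a median difference of -1.51, and in knockout cells 19 of 38 (50%, against 6.66%), with a median of -1.42. All 13 wildtype calls were also called in the knockout, where they made up 68.4% of the calls. The 6 genes called only in the knockout were Cxcl10, Parp9, Psmb8, Psme1, Samhd1 and Zbp1, and the difference between the genotypes was called for none of them (limma interaction test, 0 of 38 genes, against 0.0% of all genes). Both counts fell when some single arrays were left out, as did the counts over all genes. The wildtype median was -1.125 without wildtype CD29hi replicate 1. The knockout median was -1.07 without knockout CD29hi replicate 1.

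The height of the module also varied between arrays of a group. The median deviation of the 38 genes from their own means was -0.84 and -0.36 in wildtype CD29hi, -1.18 and -0.49 in knockout CD29hi, 0.81 and 1.01 in wildtype CD29lo, and 0.40 and 1.31 in knockout CD29lo. No CD29hi array reached a CD29lo array. The arrays of a group were farthest apart in knockout CD29lo. Knockout CD29lo replicate 1 also had the highest background of the 8 arrays, 4.41, and 64.7% of its probe sets exceeded it. The other arrays had backgrounds of 3.84 to 4.16, exceeded by 68.0% to 71.2% of probe sets.

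Markers of other cell types differed between the populations as well. The fibroblast markers (Col1a1, Col3a1, Pdgfra, Dcn, Lum) summed to 7.69 to 9.85 on the log2 scale in CD29hi and 11.1 to 14.1 in CD29lo. All 5 were called higher in CD29lo averaged over the genotypes, against 10.8% of all genes. Among them, Lum had CD29hi group means of 3.375 in wildtype and 3.34 in knockout, under the filter level of 3.51. It was thus tested only through CD29lo, and its direction was built in. Within CD29lo, both arrays numbered 2 had the highest fibroblast sums, 14.1 in wildtype and 13.8 in knockout, and the highest module medians. The leukocyte markers (Ptprc, Coro1a, Laptm5, Cd52) summed to 4.60 to 7.32 in CD29hi and 5.85 to 8.42 in CD29lo, with 0 to 3 of 4 above background on any array. Their CD29lo sums were also highest on the arrays numbered 2, at 8.42 in wildtype and 7.47 in knockout. The arrays numbered 1 had 7.38 and 5.85. Of the 8 arrays, Ptprc was above background on 3, Coro1a on 1, Laptm5 on 4 and Cd52 on 5. Macrophage markers (Cd68, Adgre1, Csf1r, Itgam) summed to 8.07 to 8.83 in CD29hi and 6.68 to 7.99 in CD29lo. That sum was led by Cd68, at 7.82 to 8.67 in CD29hi and 5.91 to 7.62 in CD29lo, while Csf1r read 4.51 to 5.16 and 5.09 to 5.48. Cd68 and Csf1r were above background on all 8 arrays, Adgre1 on 1 and Itgam on 0. The lymphocyte markers with a value (Cd3e, Cd3g, Cd79a, Nkg7) summed to 5.85 to 6.25 in CD29hi and 6.03 to 6.56 in CD29lo. Cd79a was above background on all 8 arrays, at 5.29 to 6.24, and Cd3e, Cd3g and Nkg7 on 0. Endothelial markers (Pecam1, Cdh5, Kdr, Emcn) summed to 8.02 to 10.3 and 7.67 to 9.39. The macrophage, lymphocyte and endothelial sums in CD29lo were not highest on both arrays numbered 2. The remaining CD29lo arrays, numbered 1, had fibroblast sums of 12.6 in wildtype and 11.1 in knockout, still above every CD29hi array. With both CD29lo arrays numbered 2 left out, the module's median difference was -1.25 averaged over the genotypes, -1.27 in wildtype and -1.28 in knockout. Without knockout CD29lo replicate 1 it was -1.91 averaged over the genotypes and -2.26 in knockout. The part of these cells in the module's difference was not tested.

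**Figure D2:**
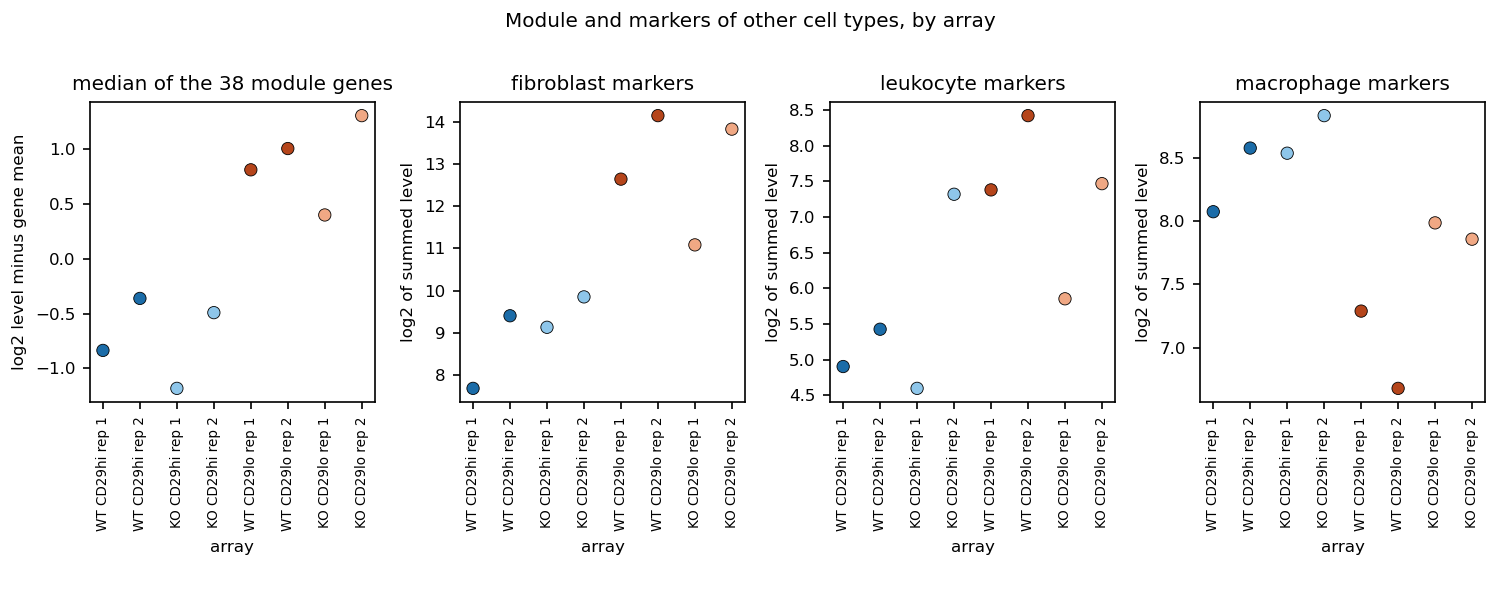
The first panel plots, for each array, the median log2 deviation of the 38 tested genes from their own means, and the others the log2 of the summed level of fibroblast, leukocyte and macrophage markers, all in the same array order. The module median and the fibroblast sum are both lower in the 4 CD29hi arrays. Within CD29lo the module median, the fibroblast sum and the leukocyte sum are highest in the arrays numbered 2. The macrophage sum, led by Cd68, is higher in CD29hi.

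Among the genes of signalling and transcription, 2 of 5 were called higher in CD29lo averaged over the genotypes, against 10.8% of all genes. Irf1, the transcription factor at the head of the interferon gamma response, read 8.34 and 8.96 in wildtype CD29hi and 8.52 and 8.88 in knockout CD29hi, against 10.87 and 11.10 in wildtype CD29lo and 10.69 and 11.18 in knockout CD29lo. The populations lay well apart and the genotypes overlapped in both. The difference was -2.34 ± 0.28 (SE) in wildtype (limma adjusted p = 0.00223) and -2.23 ± 0.28 in knockout (limma adjusted p = 0.00188), or 4.87-fold averaged over both. Irf9, the DNA-binding subunit of the complex that answers type I interferon, read 7.35 to 8.13 in CD29hi and 8.53 to 9.44 in CD29lo, a 2.05-fold difference (limma adjusted p = 0.0161 averaged over the genotypes). Its partner Stat2 read 6.18 to 6.70 in CD29hi and 6.96 to 7.79 in CD29lo, without overlap, but did not pass (limma adjusted p = 0.0857). Irf7, the amplifier of the type I response, and Nlrc5, the transactivator of MHC class I genes, overlapped between the populations, with averaged differences of -0.56 ± 0.30 and -0.47 ± 0.36.

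GTPases of cell-autonomous immunity attack intracellular parasites and bacteria. All 5 tested were called higher in CD29lo averaged over the genotypes, against 10.8% of all genes, with a median difference of -2.85. Iigp1, an immunity-related GTPase, read 5.40 and 4.75 in wildtype CD29hi, 5.81 and 6.96 in knockout CD29hi, 9.09 and 8.93 in wildtype CD29lo, and 9.59 and 10.50 in knockout CD29lo. It had the largest averaged difference among the members with all groups above background, -3.80 ± 0.34 (limma adjusted p = 0.000181). Gbp2, a guanylate-binding protein, read 5.81 and 6.86 in wildtype CD29hi, 5.57 and 6.02 in knockout CD29hi, 9.42 and 8.96 in wildtype CD29lo, and 9.38 and 9.13 in knockout CD29lo. Its difference was -2.86 ± 0.41 in wildtype (limma adjusted p = 0.00485) and -3.46 ± 0.41 in knockout (limma adjusted p = 0.00153). The related Gbp3 ranged from 3.07 to 4.65 in CD29hi, partly below background, and from 6.33 to 7.14 in CD29lo. Igtp and Irgm1 differed less, 2.16-fold and 2.35-fold. Irgm1 lost its call in 8 of 17 alternative analyses, among them 7 that left out a single array. Ifi47, of the same family, was above background on no array. Probe sets of such closely related families can bind each other's transcripts, which these files cannot resolve.

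**Figure D3:**
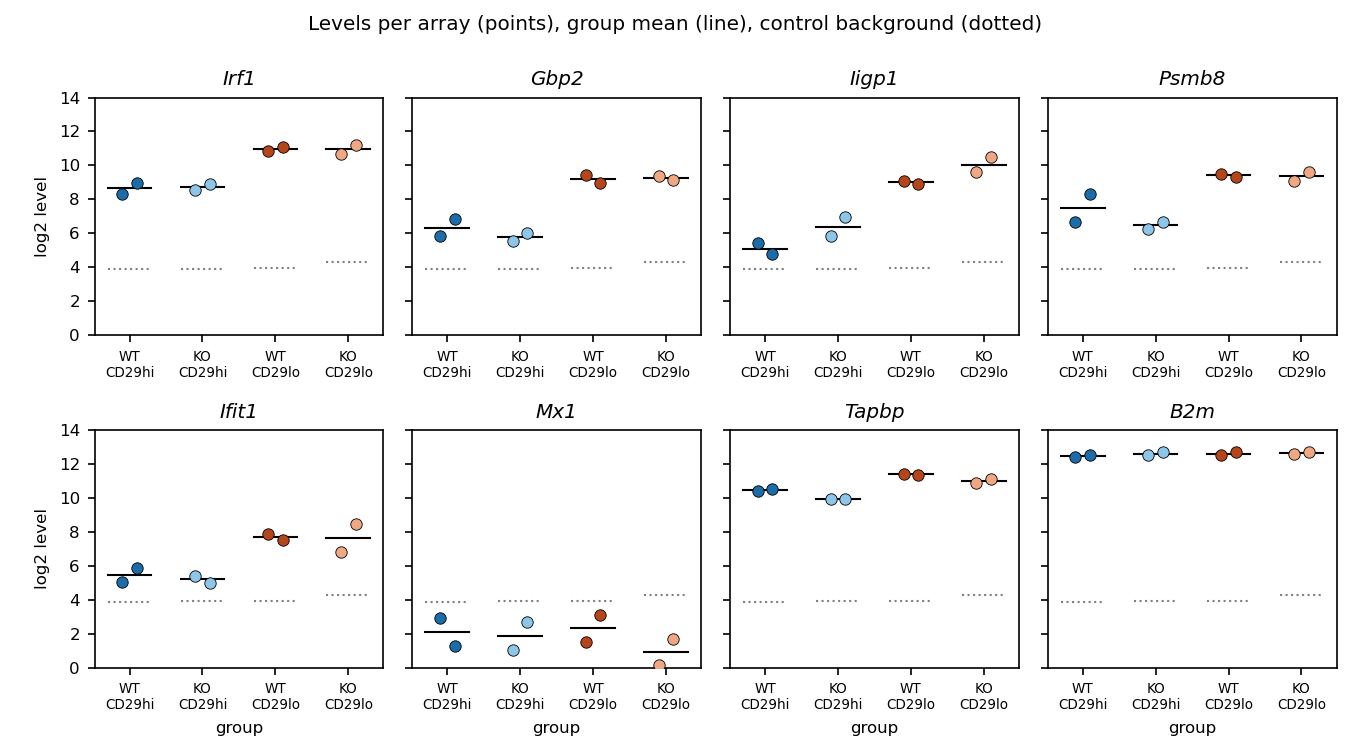
Each panel plots the log2 level of 1 gene on the 8 arrays as points by group, with the group mean as a line and the mean background of the group's control probe sets as a dotted line. Irf1, Gbp2, Iigp1, Psmb8, Ifit1 and Tapbp lie higher in both CD29lo groups, Mx1 lies below background in all 4 groups, and B2m lies between 12.43 and 12.71 on all arrays.

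Within MHC class I processing, 5 of 7 genes were called higher in CD29lo averaged over the genotypes, against 10.8% of all genes. The immunoproteasome subunit Psmb8 read 6.66 and 8.33 in wildtype CD29hi, 6.25 and 6.68 in knockout CD29hi, 9.49 and 9.33 in wildtype CD29lo, and 9.10 and 9.61 in knockout CD29lo. Wildtype CD29hi replicate 2 was the highest of the CD29hi arrays. The difference was called in knockout (-2.89 ± 0.51, limma adjusted p = 0.00811) and not in wildtype (-1.92 ± 0.51, limma adjusted p = 0.0573). When its second probe set, which was above background on 0 arrays, was averaged in, the difference over both genotypes was -1.57 with an adjusted p of 0.0554. Psmb9, the neighbouring immunoproteasome subunit, read 5.87 and 8.15 in wildtype CD29hi, 6.06 and 6.26 in knockout CD29hi, 9.83 and 10.04 in wildtype CD29lo, and 9.29 and 10.64 in knockout CD29lo, and was 10.3-fold higher in CD29lo (limma adjusted p = 0.00202). The same CD29hi array was the high one. Psme1, a subunit of the proteasome activator, was 1.73-fold higher in CD29lo (limma adjusted p = 0.0112).

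Tapbp, which encodes tapasin, read 10.38 and 10.53 in wildtype CD29hi, 9.93 and 9.94 in knockout CD29hi, 11.40 and 11.36 in wildtype CD29lo, and 10.85 and 11.12 in knockout CD29lo. Replicates lay close together, and the level was 1.98-fold higher in CD29lo (limma adjusted p = 0.000451). Of the peptide transporter, Tap2 read 3.24 to 5.89 in CD29hi and 6.08 to 7.75 in CD29lo and passed narrowly (limma adjusted p = 0.0492), a call lost in 11 of 17 alternative analyses. Tap1 overlapped between the populations, 6.73 to 7.91 against 7.78 to 9.01 (limma adjusted p = 0.0526). B2m read 12.43 to 12.71 across the 8 arrays, with an averaged difference of -0.08 and a 95% confidence interval from -0.24 to 0.08. The genes of Psmb9, Tap1, Psmb8 and Tap2 lie next to each other in that order in the genome.

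Of 10 class I pathway genes outside the module that were tested, 3 were called (22.9% of all genes were, in either direction), all higher in CD29lo, namely the third inducible proteasome subunit Psmb10 (2.51-fold) and the class I heavy chains H2-D1 (1.39-fold) and H2-K1 (1.19-fold). Of 9 tested proteasome subunits other than the inducible ones, Psma2 (1.22-fold) and Psmc1 (1.33-fold) were called higher in CD29hi averaged over the genotypes. Over all genes 12.2% were, and 0 of the 9 were called within wildtype or within knockout. The averaged differences of all 9 lay above 0, with a median of 0.29. The loading chaperones Calr, Canx and Pdia3 had differences of 0.16 ± 0.13, 0.21 ± 0.09 and 0.26 ± 0.10, none of them called.

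Among the antiviral effectors, 8 of 12 tested genes were called higher in CD29lo averaged over the genotypes, against 10.8% of all genes. Ifit1, which binds foreign RNA and blocks its translation, read 5.05 and 5.86 in wildtype CD29hi, 5.42 and 4.98 in knockout CD29hi, 7.88 and 7.54 in wildtype CD29lo, and 6.79 and 8.46 in knockout CD29lo. It was called in wildtype (-2.26 ± 0.57, limma adjusted p = 0.0485) and in knockout (-2.43 ± 0.57, limma adjusted p = 0.0264). The wildtype call was lost in 9 of 18 alternatives and the knockout call in 6 of 18. Its averaged call was kept in all 17. Knockout CD29lo replicate 1 was the lowest CD29lo array but still above all CD29hi arrays. Of its relatives, Ifit2 was 2.06-fold and Ifit3 5.60-fold higher in CD29lo, and these calls were lost in 5 of 17 and 9 of 16 alternatives. Ifit2 and Ifit3 lie next to each other in the genome.

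Oasl2, of the oligoadenylate synthetase-like family, read 4.63 and 4.30 in wildtype CD29hi, 3.51 and 4.15 in knockout CD29hi, 6.96 and 6.80 in wildtype CD29lo, and 6.49 and 6.68 in knockout CD29lo, a 6.0-fold difference (limma adjusted p = 0.000498). Zbp1, a sensor of Z-form nucleic acids, ranged from 3.32 to 4.81 in CD29hi and from 5.86 to 6.72 in CD29lo, and was 4.26-fold higher. Samhd1, which depletes nucleotides, was 1.95-fold higher, and Eif2ak2, the double-stranded RNA-dependent kinase, 2.19-fold. A dim probe set of Samhd1 had the opposite sign. Rsad2, which encodes viperin, ranged from 4.13 to 7.73 in CD29hi and from 8.30 to 9.13 in CD29lo, and lost its call (limma adjusted p = 0.0269) in 7 of 17 alternatives.

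No call was made for the remaining effectors. Mx1, a GTPase against influenza-like viruses and one of the genes that define the type I arm, read 0.17 to 3.09 and was above background on 0 arrays. Mx2 read 3.50 to 6.09 with overlap. Bst2, the virion tether tetherin, overlapped, as did Ifi35, which alone among the 38 had an averaged difference above 0 (0.16 ± 0.29). Another Ifi35 probe set, above background on all 8 arrays, had a difference of the other sign (-0.33). Xaf1 read 7.67, 8.40 and 8.56 on 3 CD29lo arrays but 5.36 on knockout CD29lo replicate 1, inside the CD29hi range of 5.18 to 6.31. Oas2 was above background only in CD29lo, at 4.79 and 4.27 in wildtype and 5.16 in knockout replicate 2, while the other knockout array read 1.46. It was not tested.

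In the ISG15 system and RNA sensing, 3 of 4 tested genes were called higher in CD29lo in each genotype. Over all genes the share was 4.23% in wildtype and 6.66% in knockout. Usp18, the protease that removes ISG15 and restrains type I signalling, read 2.81 and 4.65 in wildtype CD29hi, 3.15 and 3.63 in knockout CD29hi, 6.68 and 7.21 in wildtype CD29lo, and 7.59 and 8.24 in knockout CD29lo. Neither knockout CD29hi array exceeded background, so the difference there is a bound: at least 16.2-fold higher in CD29lo (limma adjusted p = 0.00291). In wildtype, where 1 of the 2 CD29hi arrays exceeded background, it was 9.29-fold (limma adjusted p = 0.0166). Ifih1, the RNA sensor MDA5, read 5.48 and 5.88 in wildtype CD29hi, 4.53 and 5.16 in knockout CD29hi, 7.63 and 8.14 in wildtype CD29lo, and 8.04 and 8.17 in knockout CD29lo, a 6.65-fold difference (limma adjusted p = 0.000296). Trim25, a ubiquitin ligase that activates the sensor RIG-I, differed less but evenly, 10.83 to 11.05 against 11.79 to 11.99, or 1.87-fold (limma adjusted p = 0.000207). Its probe set, like that of Ifi35, is of a kind that can match more than 1 transcript. Dhx58, the RNA helicase LGP2, read 3.16 to 4.44 and was above background on 4 of the 8 arrays.

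Dtx3l, Parp9 and Parp14 were all called higher in CD29lo averaged over the genotypes, against 10.8% of all genes. Dtx3l is a ubiquitin ligase that works as a complex with Parp9, and Parp14 is a related ADP-ribosyltransferase. Parp14, Dtx3l and Parp9 are neighbours in the genome. Dtx3l read 8.54 and 8.78 in wildtype CD29hi, 8.39 and 8.48 in knockout CD29hi, 11.09 and 10.82 in wildtype CD29lo, and 10.84 and 11.32 in knockout CD29lo. With -2.47 ± 0.16 it had the smallest adjusted p of the module (limma adjusted p = 4.86e-05). Parp14 read 5.65 to 6.96 in CD29hi and 8.36 to 9.21 in CD29lo (5.69-fold, limma adjusted p = 0.000417), and Parp9 read 5.93 to 7.35 and 8.50 to 8.97 (3.99-fold, limma adjusted p = 0.00301).

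Of the secreted products, Cxcl10, a chemokine that attracts T cells, read 4.86 and 4.49 in wildtype CD29hi, 4.50 and 6.76 in knockout CD29hi, 6.44 and 7.78 in wildtype CD29lo, and 9.47 and 8.16 in knockout CD29lo. It was 7.01-fold higher in CD29lo averaged over the genotypes (limma adjusted p = 0.00869), although knockout CD29hi replicate 2 lay above wildtype CD29lo replicate 1. Lgals3bp, a secreted glycoprotein, read 3.40 to 4.16 in CD29hi and 3.54 to 5.76 in CD29lo and did not pass.

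**Figure D4:**
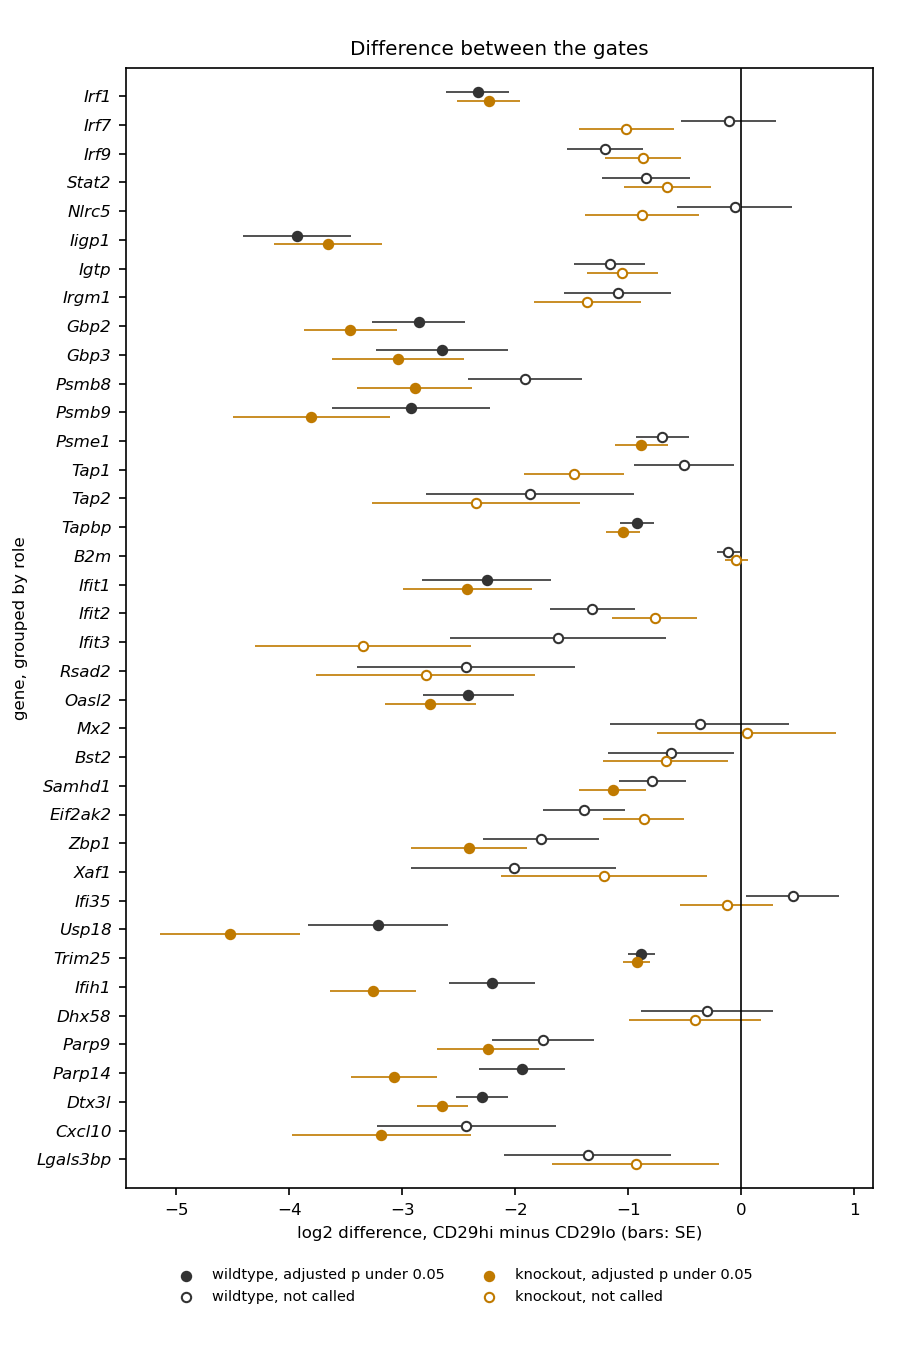
The horizontal axis gives the log2 difference CD29hi minus CD29lo for each of the 38 tested genes, grouped by role, with bars for the SE. Dark points are wildtype and orange points knockout, filled where the limma adjusted p was under 0.05, and all filled points lie left of 0. The knockout point of Usp18 is drawn at its fitted value, although neither of its knockout CD29hi arrays exceeded background.

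Separating the arms, all 4 genes that define the type II arm (Irf1, Gbp2, Iigp1, Psmb8) were called averaged over the genotypes, with a median of -2.78. Of the 3 that define the type I arm, Ifit1 was called at -2.34, Mx1 was below background and Isg15 had no value, so the type I arm rested on 1 gene. In wider arms drawn from the members, 11 of 14 tested type II genes were called, with a median of -1.67, and 9 of 15 type I genes, with a median of -1.13. All 14 and all 15 lay below 0. Over all genes tested, 10.8% were called higher in CD29lo, 7179 of 14598 lay below 0, and the median was 0.01. The medians of both arms were lower in each CD29hi array (-1.39 to -0.09 for type II and -0.90 to -0.45 for type I) than in any CD29lo array (0.61 to 1.26 and 0.29 to 1.24).

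Upstream of the module, 1 of 6 receptor chains, 4 of 9 kinases and transcription factors, 2 of 5 inhibitors and 4 of 11 sensors and adaptors were called averaged over the genotypes, against 22.9% of all genes called in either direction. Of the interferon ligands, Ifng, Ifna2 and Ifna4 were above background on 0 arrays, Ifnb1 on 3, and Ifna1 read 5.16 to 6.21 with no call. The receptor chain called was Ifnlr1, of the interferon lambda receptor (1.84-fold higher in CD29lo), and no call was made for Ifnar1, Ifnar2, Ifngr1, Ifngr2 or Il10rb. Among kinases and transcription factors, Jak2, which serves the interferon gamma receptor, read 8.55 to 8.93 in CD29hi and 10.34 to 10.61 in CD29lo (3.48-fold, limma adjusted p = 0.00016). Jak1 (1.52-fold) and Irf2 (2.08-fold) were also higher in CD29lo, and Irf5 was higher in CD29hi (1.60-fold). Of the inhibitors, Socs3 was 2.27-fold higher in CD29lo and the phosphatase gene Ptpn11 1.47-fold higher in CD29hi. Sensors higher in CD29lo were Tlr4 (4.72-fold), Ddx58, which encodes RIG-I (3.61-fold), Tlr3 (3.15-fold) and the adaptor Sting1 (2.12-fold).

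Interferon targets outside the module lay below 0 in 23 of 29 tested, against 7179 of 14598 over all genes. Of these 29, 12 were called higher in CD29lo averaged over the genotypes, against 10.8% of all genes. The 1 called higher in CD29hi, against 12.2% of all genes, was Ifitm2 (1.92-fold). Ifi204, a DNA sensor of the p200 family, was at background in both CD29hi groups and at least 14.6-fold higher in CD29lo, and Gbp7 was 8.62-fold higher. The CD29hi group means of Ifi204, 2.825 in wildtype and 2.885 in knockout, lay under the filter level of 3.51. Those of Oas1a, 3.66 and 2.78, averaged under it. Both genes were thus tested only through CD29lo, so the direction of their differences was built in. The counts of these targets and of all pathway genes include them, since only the module's members were checked for this. Over all 81 tested pathway genes that are no members, 24 were called higher in CD29lo and 5 in CD29hi. The shares over all genes were 10.8% and 12.2%. The median of the 81 was -0.40, against 0.01 over all genes tested.

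Between the genotypes no gene of the module was called, and few genes of any kind were. With such small shares over all genes, 0 of 38 says nothing particular about the module, here or in the alternatives. At a limma adjusted p under 0.05, 0 of 38 genes differed between knockout and wildtype in CD29hi (0.0137% of all genes did), 0 in CD29lo (0.0137%), and 0 averaged over both (0.0685%). At an unadjusted p under 0.05 the counts were 3 of 38 in CD29hi (7.84% of all genes), 1 in CD29lo (6.68%), 3 averaged (9.27%), and 0 for the interaction (4.95%). The median difference, knockout minus wildtype, was -0.24 in CD29hi, with 29 of 38 below 0, and 0.09 in CD29lo, with 24 above 0. The medians over all genes were -0.02 and -0.06. With 1 array left out, the CD29hi median ran from -0.54 without wildtype CD29hi replicate 1 to 0.04 without wildtype CD29hi replicate 2. The CD29lo median ran from -0.19 without knockout CD29lo replicate 2 to 0.36 without knockout CD29lo replicate 1, so both changed sign. All 18 alternative analyses within each population also gave 0 called members.

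Tapbp, Iigp1 and Cxcl10 had the smallest p averaged over the populations. Every knockout array of Tapbp lay below both wildtype arrays of its population, with differences of -0.52 ± 0.15 in CD29hi and -0.40 ± 0.15 in CD29lo (limma adjusted p = 0.424 and 0.683). Its averaged difference was -0.46, with a 95% confidence interval from -0.70 to -0.21 (limma adjusted p = 0.262). Every knockout array of Iigp1 lay above both wildtype arrays of its population, with differences of 1.31 ± 0.48 in CD29hi and 1.03 ± 0.48 in CD29lo (limma adjusted p = 0.56 and 0.749), and its averaged interval ran from 0.40 to 1.95. A second Iigp1 probe set, above background on 6 arrays, overlapped in CD29hi, with 2.31 and 6.14 in knockout against 0.77 and 4.61 in wildtype. In CD29lo it did not overlap. The knockout arrays of Oasl2 lay below the wildtype arrays in both populations. These 3 of 38 genes compare with 9.41% of all genes whose arrays separated the genotypes in the same direction in both populations. Cxcl10 had a difference of 1.71 ± 0.79 in CD29lo (limma adjusted p = 0.749), and in CD29hi its difference of 0.95 ± 0.79 rested on knockout replicate 2, without which it was -0.17.

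In CD29hi, the knockout minus wildtype differences of Parp14, Ifih1 and Irf9 were -0.87 ± 0.38, -0.84 ± 0.38 and 0.66 ± 0.34, without overlap between the arrays. Such separation was common with 2 arrays a side. Knockout lay wholly higher in 3 of 38 members, against 2676 of 14598 genes. It lay wholly lower in 8 members, against 3095 genes. Mx2 read 4.61 and 5.25 in knockout CD29hi, while both wildtype arrays read 3.74, below background. Psmb8 had a difference of -1.03 ± 0.51 with overlapping arrays. In CD29lo, the differences of Ifit2, Eif2ak2 and Usp18 were -0.86 ± 0.38, -0.69 ± 0.36 and 0.97 ± 0.62. None of these passed, with limma adjusted p from 0.636 to 0.814. The test of whether the genotype difference itself differed between populations gave its smallest p for Parp14 (-1.14 ± 0.53, limma adjusted p = 0.961). For Irf1 the 95% confidence interval of the genotype difference was -0.59 to 0.69 in CD29hi and -0.69 to 0.59 in CD29lo, and for Gbp2 -1.48 to 0.40 and -0.88 to 1.01. In the wider pathway, the inflammatory caspase Casp1 was the only gene called between the genotypes, at 5.09-fold lower in the knockout averaged over both populations (limma adjusted p = 0.0421).

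**Figure D5:**
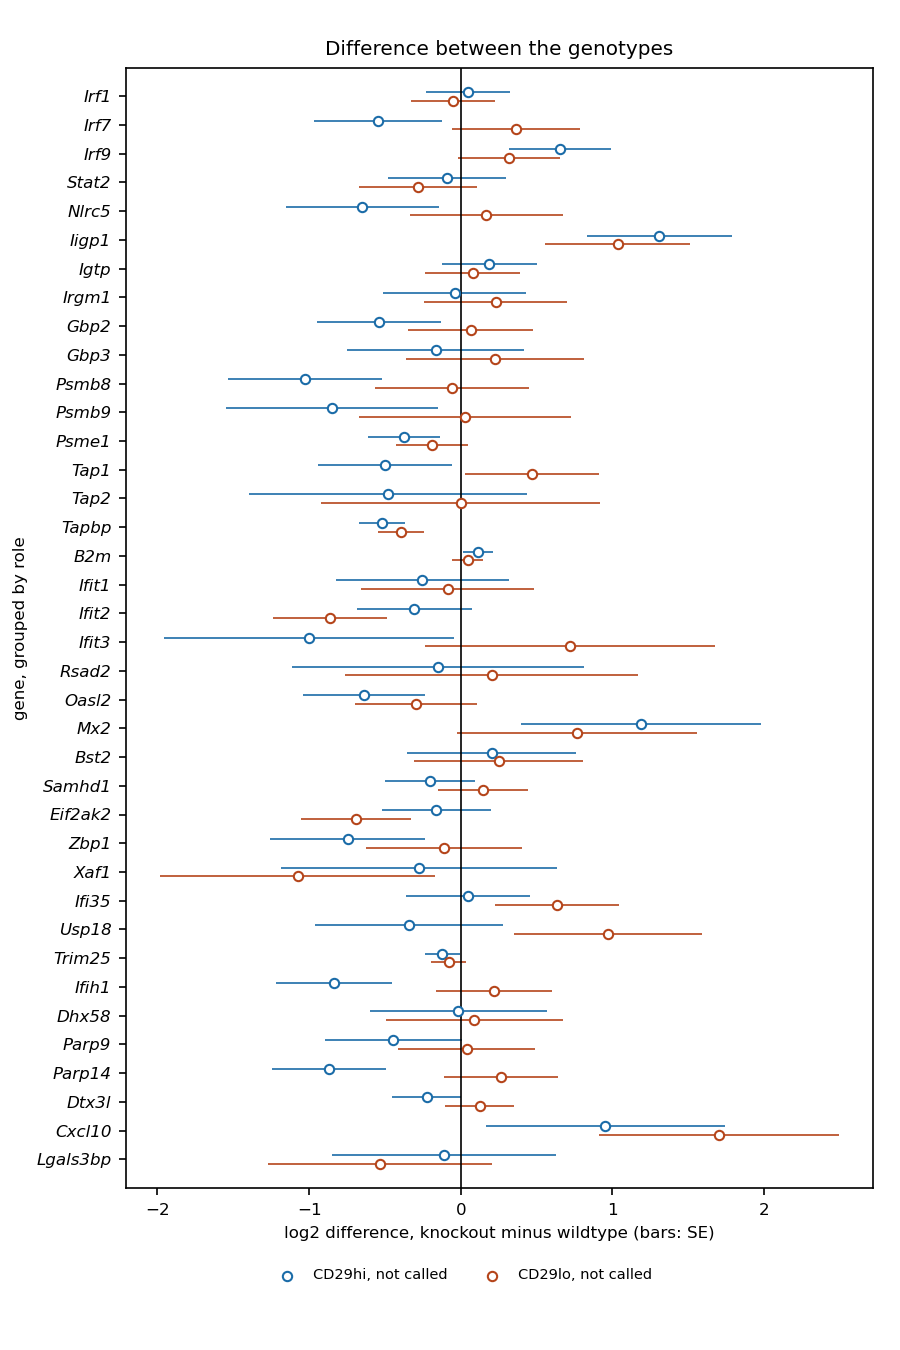
The horizontal axis gives the log2 difference knockout minus wildtype for each of the 38 tested genes, blue in CD29hi and red in CD29lo, with bars for the SE. All points are open because none passed the adjusted p, and the points scatter on both sides of 0, with Iigp1 to the right and Tapbp to the left in both populations.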

How the data were processed

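Gene expression was measured on 8 Affymetrix arrays from 4 groups of 2 samples. RNA was amplified with a NuGEN kit, per the labels' protocols. The authors deposited 1 value per probe set on a log2 scale, inferred from the range of the values and their nearly equal array medians, and the normalization method is not given in the sources used here. Amplification and normalization can compress differences, and a value near background has no reliable fold. An array's background was the 95th percentile of 27 bacterial control probe sets on it, and the number of arrays limits the precision. Genes were named from 34958 of 45101 probe sets that carry 1 symbol. A gene was tested only if its mean reached 3.51, the 25th percentile over the probe sets. Differences were fitted with limma 3.58.1 (R 4.3.3) on the 4 group means with a variance trend, with Benjamini-Hochberg adjustment over the 14598 genes and a threshold of 0.05. The fit was also run on simulated data with independent noise for each value. Those data held no shift shared by the genes of an array, and no result here rests on them. A group at or below background on both arrays was raised to background for an "at least" fold. Named genes were the 7 arm genes, all members called in any comparison and the 4 of smallest p per comparison and direction. Other pathway genes were named if called or among the smallest p, and the uncalled ones beside them were chosen after their values were seen. The members and lists were chosen with earlier results of these data known. The alternatives were quantile normalization, other filters, the mean of probe sets, values raised to 4, a fit with no variance trend, a block for the replicate number, array weights, fits of 2 groups alone, and arrays left out.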

Additional observations from a re-analysis of the deposited data

How the results depend on the processing

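With 2 arrays a group, a single array could decide a call. Of the 27 members called between the populations averaged over the genotypes, 16 kept the call in every alternative with a value. The median difference of the members tested ran from -1.91 to -1.18 in 17 alternatives, against -1.42. In wildtype the 13 calls became 8 without a variance trend and 6 to 15 when 1 array was left out (6 without wildtype CD29hi replicate 1), while all genes called, 1196, became 785 and 512 to 1383. In knockout the 19 calls became 12 without both CD29lo arrays numbered 2 and 10 to 20 with 1 array left out (10 without knockout CD29hi replicate 1), and all genes called 722 to 1913, against 2053. Averaged, all genes called were 1995 to 3077 with 1 array left out, against 3345. Between the genotypes, 0 members were called in every alternative. All genes called in CD29hi, 2, became 1 with the filter at the 50th percentile, 0 with the mean of probe sets, 1 without a trend, 4 with only the arrays compared, 1 with values raised to 4, and 0 to 3 with 1 array left out. In CD29lo, 2 became 1, 1, 0 and 0 with the stricter filter, no trend, only the arrays compared and values raised to 4, 0 without both arrays numbered 2, and 0 to 2 with 1 array left out. Averaged, 10 became 2, 4 and 6 with the stricter filter, no trend and values raised to 4, 5 without both CD29lo arrays numbered 2, and 3 to 21 with 1 array left out. With the replicate number as a block they became 16. The labels do not say whether the numbers mark the paired sets. Same-numbered arrays had correlations of their deviations of 0.0056 to 0.321, and the block was used only as an alternative. Differences that changed sign were uncalled. With 1 array left out, Cxcl10 in CD29hi ran from -0.17 to 2.09, Xaf1 in CD29lo from -2.67 to 0.53, the interaction of Irf9 from -0.10 to 0.78 and of Xaf1 from -0.80 to 2.40, Mx2 between the populations in knockout from -1.16 to 1.26, and Ifi35 averaged from -0.15 to 0.47. Mx2 was -0.12 with values raised to 4, against 0.05, and the interaction of Eif2ak2 was -0.25 with the mean of probe sets, against 0.53. The cause of these changes was not tested beyond the arrays named.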
